A study of Mus musculus with 6 samples.

Results

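The annexin genes *Anxa1*, *Anxa2*, *Anxa4*, *Anxa5*, *Anxa6*, *Anxa7* and *Anxa11* and the S100 genes *S100a6*, *S100a10* and *S100a11* were followed in Tregs from melanomas. These 10 genes encode annexins and S100 proteins that bind them, and they were chosen with earlier results of these data known. They are 10 of the 12153 genes with values and not all measured members of the families. RNA-Seq was performed on 3 control libraries and 3 libraries of Nr3c1-Foxp3-Cre mice, collected at day 15 after B16.F10 mouse melanoma cells were implanted. Both groups carry a floxed *Nr3c1*, the gene for the glucocorticoid receptor (GR). The Nr3c1-Foxp3-Cre mice carry Foxp3-YFP/Cre, a Cre recombinase and a fluorescent protein expressed from the *Foxp3* promoter. The deletion thus takes place in cells that have switched *Foxp3* on. The labels name no Cre for the control mice, although a sort on the *Foxp3* reporter would need the reporter there too. Whether the groups differ in Cre is therefore not known. The labels describe CD4+CD25+ cells sorted after depletion of tumor cells on a density gradient, and the study's methods describe a sort of CD45.2+CD4+ cells on the *Foxp3* reporter, with myeloid (CD11b, CD11c), B, NK and γδ T cells stained for exclusion. Nothing read in the labels says that the 3 libraries of a group came from separate animals, so p-values measure the spread between these samples, which may be technical. Values are log2 CPM (CPM: read counts scaled to the same library total) after quantile normalization by the authors, and the read depth behind them is unknown.

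Annexins are cytosolic proteins that bind acidic phospholipids on membranes when calcium rises. S100 proteins are small calcium sensors, and several clasp the N-terminal tail of an annexin to form a complex that joins membranes or carries membrane proteins to the surface. In T cells, annexin and S100 transcripts are known for their rise with activation and memory. *Anxa1* is best known as a gene induced by glucocorticoids in myeloid cells, and its product is released to act on formyl peptide receptors. The comparison of the groups asks whether these genes depend on GR in tumor Tregs.

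None of the 10 genes passed the test for a change with the loss of *Nr3c1*. By limma's moderated test, 0 of 10 had an adjusted p under 0.05, where 7 of all 12153 genes, or 0.0576%, did. Split by direction, that share was 0.00823% for genes higher with the deletion and 0.0494% for genes lower with it. At an unadjusted p under 0.05 there were 0 of 10, against 3.26% of all genes. It was 1 of 10, *Anxa2*, without control replicate 3 or with the mean of the melanocyte markers as a covariate. The share of all genes in those alternative fits is not given here, so that count has no background to be read against. The 3 control and 3 Nr3c1-Foxp3-Cre values overlapped for each of the 10 genes, whereas they were apart for 7.41% of all genes, 3.69% higher and 3.73% lower. Mean values were higher in Nr3c1-Foxp3-Cre Tregs for 4 of the 10 and lower for 6, with a median log2 fold change of -0.017, beside -0.0014 over all genes.

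The deletion itself was visible in the same libraries. *Nr3c1* was at 7.15, 7.59 and 6.88 log2 CPM in control Tregs and at 6.14, 5.45 and 5.90 in Nr3c1-Foxp3-Cre Tregs, with a log2 fold change of -1.38 (SE 0.21, limma adjusted p = 0.120). Every Nr3c1-Foxp3-Cre value lay below every control value, although the adjusted p missed the threshold. *Tsc22d3*, which encodes the glucocorticoid-induced leucine zipper GILZ, fell by 1.56 on the log2 scale (SE 0.16, limma adjusted p = 0.0342). Its log2 fold change lay between -1.68 and -1.37 in every alternative fit. With all libraries, its adjusted p was 0.221 without a mean-variance trend and 0.137 with a replicate block. It was also over 0.05 when control replicate 3 was left out (0.0712), and likewise for Nr3c1-Foxp3-Cre replicate 1 (0.0639), replicate 2 (0.140) or replicate 3 (0.154).

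**Figure D1:**
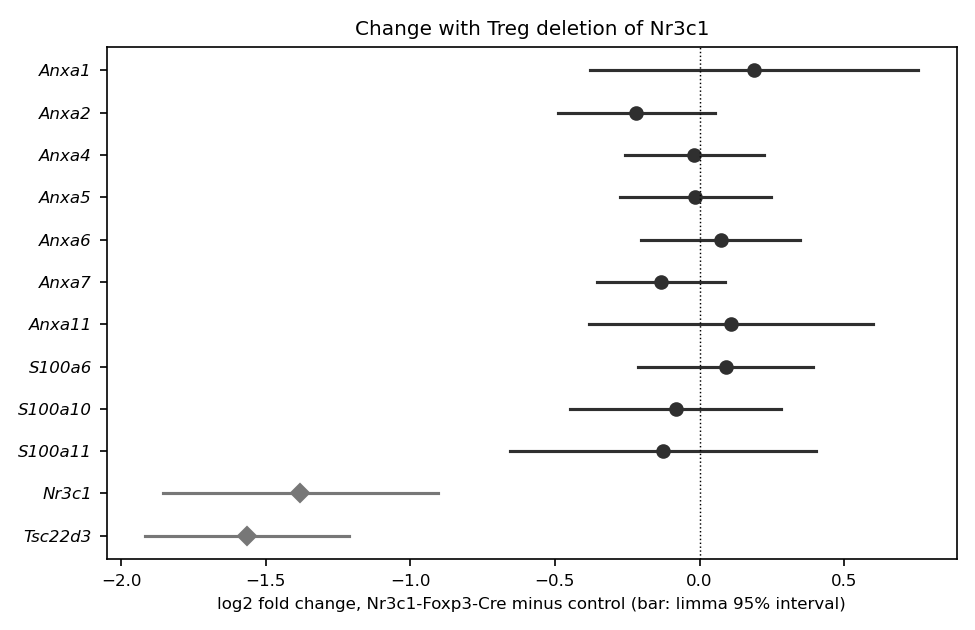
Log2 fold change (Nr3c1-Foxp3-Cre minus control, horizontal axis) of the 10 annexin and S100 genes as circles and of *Nr3c1* and *Tsc22d3* as diamonds, with limma 95% intervals as bars, from 3 libraries per group. The intervals of all 10 circles hold 0, and both diamonds lie below -1.3.

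The size of change that the data leave room for was given by the 95% intervals. All 10 intervals held 0. The estimated fold (Nr3c1-Foxp3-Cre over control) ran from 0.860 for *Anxa2* to 1.14 for *Anxa1*. The lowest bound of any interval was a fold of 0.635, for *S100a11*, and the highest was a fold of 1.69, for *Anxa1*. Intervals were narrowest for *Anxa7* (fold 0.783 to 1.06) and *Anxa4* (fold 0.836 to 1.17). The direction of most of these small differences rested on single libraries. The sign turned when 1 of the 6 libraries was left out for 8 of the 10 genes, and did not turn for *Anxa2* and *Anxa7*. The log2 fold change of *Anxa2* was -0.13 without control replicate 2, -0.31 without control replicate 3 and -0.054 with sample quality weights, beside -0.22 in all libraries.

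*Anxa2* and *S100a10* encode the partners of the annexin A2 tetramer, which tethers plasminogen, its activator and the scaffold protein AHNAK at the inner and outer face of the plasma membrane. *Anxa2* (ENSMUSG00000032231.14, mm10 chr9:69453620-69491795, plus strand) was at 9.61, 9.77 and 9.40 log2 CPM in control libraries and at 9.35, 9.28 and 9.51 in Nr3c1-Foxp3-Cre libraries. The highest Nr3c1-Foxp3-Cre value exceeded the lowest control value, so the groups overlapped. The log2 fold change of -0.22 (SE 0.12, limma adjusted p = 0.99998) was the largest downward difference of the 10 genes. *S100a10* (ENSMUSG00000041959.14, chr3:93555080-93564643, plus strand) was at 8.55, 9.02 and 8.92 log2 CPM in control libraries and at 8.89, 8.43 and 8.92 in Nr3c1-Foxp3-Cre libraries. Its lowest values were in control replicate 1 and Nr3c1-Foxp3-Cre replicate 2, so the spread within a group (SD 0.25 and 0.27, n = 3) was larger than the log2 fold change of -0.08 (SE 0.16). *Ahnak* had a log2 fold change of 0.13 (SE 0.18), and its groups overlapped too.

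*Anxa1* and *S100a11* encode another such pair, which works on endosomes and at sites of membrane injury. *Anxa1* (ENSMUSG00000024659.15, chr19:20373428-20390944, minus strand) was at 7.08, 6.26 and 6.29 log2 CPM in control libraries and at 6.61, 7.20 and 6.39 in Nr3c1-Foxp3-Cre libraries. Control replicate 1 and Nr3c1-Foxp3-Cre replicate 2 stood above the other 4 libraries, so each genotype held 1 high library. The log2 fold change of 0.19 (SE 0.25, limma adjusted p = 0.99998) was smaller than the SD between replicates, 0.46 in control and 0.41 in Nr3c1-Foxp3-Cre libraries (n = 3 each). Without Nr3c1-Foxp3-Cre replicate 2 it was -0.042, and over the 6 fits without 1 library it reached 0.46. *S100a11* (ENSMUSG00000027907.4, chr3:93520488-93526287, plus strand) was at 7.44, 8.19 and 8.15 log2 CPM in control libraries and at 8.14, 7.37 and 7.88 in Nr3c1-Foxp3-Cre libraries. Here the same 2 libraries that were highest for *Anxa1* were lowest. The log2 fold change of *S100a11* was -0.13 (SE 0.23, limma adjusted p = 0.99998). The formyl peptide receptor genes *Fpr1*, *Fpr2* and *Fpr3* were not analysed here.

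*Anxa11* and *S100a6* encode the third pair. Annexin A11 links membrane vesicles and RNA granules, and S100A6, also called calcyclin, binds it and the ubiquitin ligase adaptor CACYBP. *Anxa11* (ENSMUSG00000021866.15, chr14:25842156-25886804, plus strand) was at 4.88, 5.70 and 5.39 log2 CPM in control libraries and at 5.62, 5.13 and 5.54 in Nr3c1-Foxp3-Cre libraries, with a log2 fold change of 0.11 (SE 0.22). *S100a6* (ENSMUSG00000001025.8, chr3:90612882-90624181, plus strand) was at 6.70, 6.997 and 6.98 log2 CPM in control libraries and at 7.02, 6.75 and 7.18 in Nr3c1-Foxp3-Cre libraries, with a log2 fold change of 0.09 (SE 0.14). Both genes were lowest in control replicate 1 and Nr3c1-Foxp3-Cre replicate 2. *Cacybp* had a log2 fold change of -0.07 (SE 0.13).

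The other 4 annexins were not compared as pairs. Annexin A5 coats membranes that expose phosphatidylserine and is the protein used to stain apoptotic cells, annexin A6 has a doubled annexin core and acts in membrane repair and cholesterol traffic, annexin A4 acts in exocytosis and ion channel control, and annexin A7 binds the calcium sensor sorcin. *Anxa6* (ENSMUSG00000018340.13, chr11:54979108-55033445, minus strand) was at 9.81, 10.08 and 10.09 log2 CPM in control libraries and at 10.11, 9.90 and 10.17 in Nr3c1-Foxp3-Cre libraries. *Anxa5* (ENSMUSG00000027712.13, chr3:36448923-36475894, minus strand) was at 8.38, 8.35 and 8.29 log2 CPM in control libraries and at 8.16, 8.56 and 8.25 in Nr3c1-Foxp3-Cre libraries. Control values of *Anxa5* lay closer together than those of any other of the 10 genes (SD 0.046, n = 3), and all of them fell inside the range of the Nr3c1-Foxp3-Cre values. *Anxa4* (ENSMUSG00000029994.17, chr6:86736840-86793584, minus strand) was at 6.81, 6.81 and 6.56 log2 CPM in control libraries and at 6.69, 6.77 and 6.67 in Nr3c1-Foxp3-Cre libraries. *Anxa7* (ENSMUSG00000021814.17, chr14:20455260-20480133, minus strand) was at 6.80, 6.88 and 6.78 log2 CPM in control libraries and at 6.68, 6.60 and 6.78 in Nr3c1-Foxp3-Cre libraries. Log2 fold changes were 0.07 for *Anxa6* (SE 0.12), -0.02 for *Anxa5* (SE 0.12), -0.02 for *Anxa4* (SE 0.11) and -0.13 for *Anxa7* (SE 0.10), all with a limma adjusted p of 0.99998. Of these 4, *Anxa7* came nearest to apart groups, with 1 Nr3c1-Foxp3-Cre library, replicate 3, inside the control range.

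**Figure D2:**
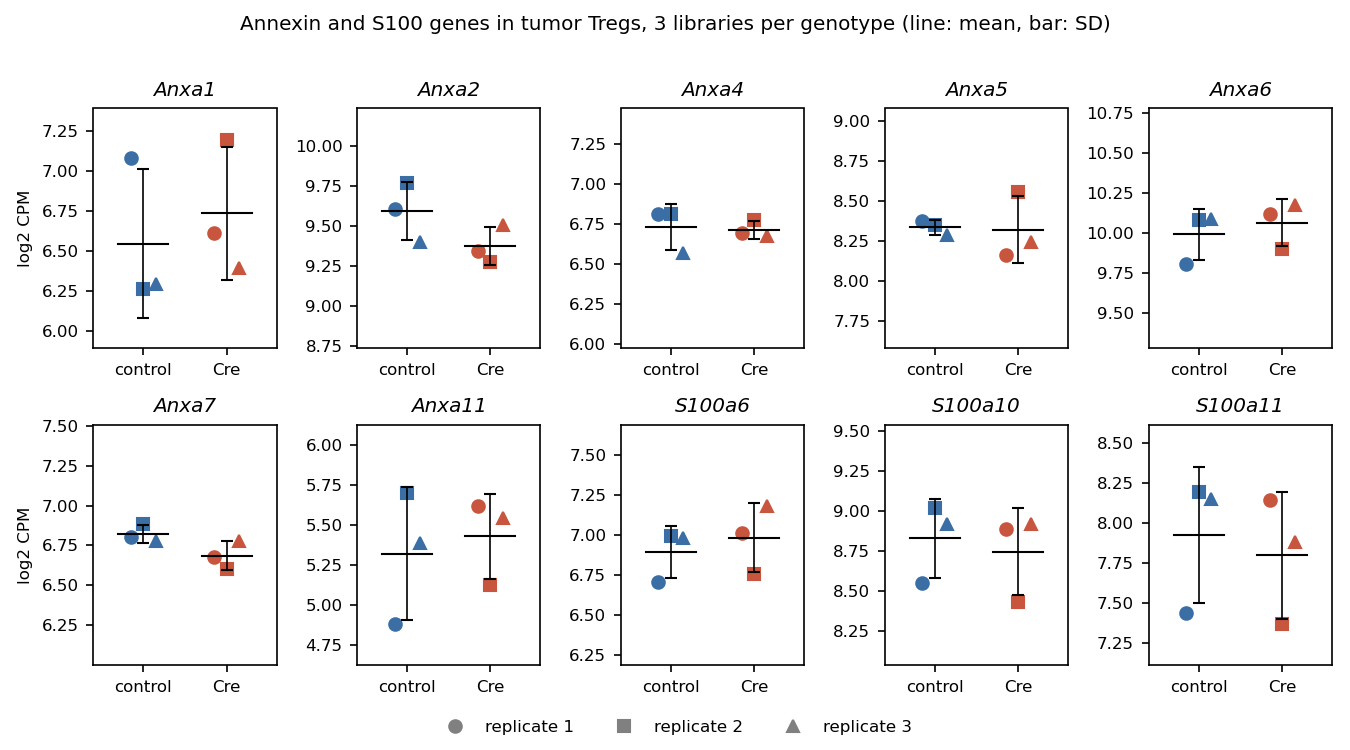
Log2 CPM (vertical axes, each spanning the same log2 distance) of the 10 genes in the 3 control (blue) and 3 Nr3c1-Foxp3-Cre (red, "Cre") libraries, with marker shapes for replicate numbers, horizontal lines for group means and bars for the SD. Groups overlap in every panel, and *Anxa1* and *S100a11* spread most within a group together with *Anxa11* in controls (SD 0.41 in control *Anxa11*).

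The balance between partners within a library was compared as a log2 ratio. Scaling of a whole library does not alter this ratio, although quantile normalization can. *Anxa2* to *S100a10* was 0.76 ± 0.29 in control and 0.63 ± 0.20 in Nr3c1-Foxp3-Cre libraries (SD, n = 3; exact two-sided permutation p = 0.6). The log2 ratio of *Anxa1* to *S100a11* was -0.36, -1.93 and -1.85 in control libraries and -1.53, -0.17 and -1.49 in Nr3c1-Foxp3-Cre libraries (exact two-sided permutation p = 0.5). That ratio varied more than the other ratios, since its partners moved in opposite directions in control replicate 1 and Nr3c1-Foxp3-Cre replicate 2. *Anxa11* to *S100a6* was -1.57 ± 0.27 and -1.55 ± 0.14 (SD, n = 3; exact two-sided permutation p = 1). Adjusted over the 3 pairs these p-values were 0.9, 0.9 and 1, and 3 libraries against 3 cannot go below 0.1. The sign of each difference turned in fits without 1 library. The *Anxa2* to *S100a10* difference of -0.14 became 0.012 without control replicate 1, and the *Anxa1* to *S100a11* difference of 0.32 became -0.13 without Nr3c1-Foxp3-Cre replicate 2. The *Anxa11* to *S100a6* difference of 0.018 became -0.11 when control replicate 1 was left out and -0.061 when Nr3c1-Foxp3-Cre replicate 1 was.

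Levels were compared between genes per kb of exon, with the union of the exons that GENCODE M21 gives each gene. On the scale of log2 CPM per kb over the 6 libraries, *S100a11* was highest at 8.83 ± 0.37 (SD, n = 6), followed by *S100a10* at 8.51 ± 0.24 and *Anxa6* at 8.48 ± 0.14. *Anxa2* at 7.59 ± 0.18 and *Anxa5* at 7.50 ± 0.14 came next, then *S100a6* at 6.49 ± 0.18. The lower end held *Anxa1* at 5.10 ± 0.41, *Anxa4* at 4.50 ± 0.10, *Anxa7* at 4.17 ± 0.10 and *Anxa11* at 3.33 ± 0.32. Neighbours in this order were ordered the same way in all 6 libraries, except *S100a10* over *Anxa6* and *Anxa2* over *Anxa5*, each in 5 of 6. Among the 12130 genes with an exon length, *S100a11*, *S100a10* and *Anxa6* were above 99% of genes per kb, while *Anxa1* stood at percentile 84.4 and *Anxa11* at 59.8.

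The order within the top depended on the length used. Per kb of the longest protein-coding transcript, the log2 level was 9.34 for *S100a10*, 8.95 for *Anxa2*, 8.83 for *S100a11* and 8.71 for *Anxa6*, so that *S100a10* and *Anxa2* passed *S100a11*. The order from *Anxa5* down to *Anxa11* was the same with both lengths. RNA of overlapping genes could enter the values of 3 annexins, since *Anxa2*, *Anxa4* and *Anxa11* share 98, 75 and 113 exon bases with other annotated genes. The overlapping genes lie on the opposite strand for *Anxa4* and *Anxa11* and on both strands for *Anxa2*. Whether the counting used strand is not given in the sources used here. *S100a11* has a processed pseudogene, *S100a11-ps*, whose reads the counting could split from or add to it.

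**Figure D3:**
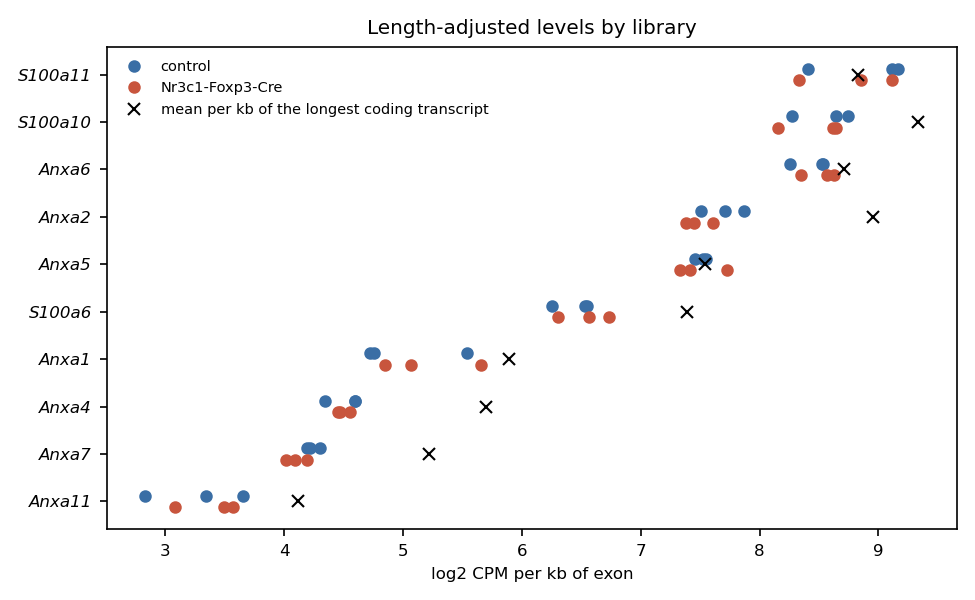
Log2 CPM per kb of exon (horizontal axis) of each gene in control (blue) and Nr3c1-Foxp3-Cre (red) libraries, 3 points each, with a cross for the mean of 6 libraries per kb of the longest protein-coding transcript. *S100a11*, *S100a10* and *Anxa6* occupy the top in both groups and *Anxa11* the bottom. The crosses lie to the right of all points of their gene except for *S100a11* and *Anxa5*.

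Other genes of the families were sparse or overlapped in the same manner. Of 12 annexin genes looked for, 9 had values, and of 17 S100 genes 8 did. *Anxa3* and *Anxa9* were low, at 3.82 and 3.55 CPM (geometric means of 6 libraries), with log2 fold changes of -0.31 (SE 0.36) and -0.17 (SE 0.35). *S100a4*, a gene of effector and memory T cells, was at 62.8 CPM with a log2 fold change of 0.17 (SE 0.26), and *S100a13*, at 70.1 CPM, had one of -0.02 (SE 0.14). *S100a1*, *S100a16* and *S100b* had log2 fold changes of 0.07 (SE 0.32), -0.02 (SE 0.33) and 0.06 (SE 0.39), and *S100pbp*, the gene of an S100P-binding protein, -0.16 (SE 0.24). None of these passed the test, and all had groups that overlapped.

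All 3 S100 members lie on chromosome 3, on which 14 of the listed S100 genes are found. A cluster of 12 S100 genes runs from *S100a1* to *S100a9* (mm10 chr3:90511034-90695721), and 5 of them, *S100a6* included, had values. *S100a4* ends 6837 bases before *S100a6*. *S100a11* and *S100a10* lie apart from the cluster, with 28793 bases between the end of *S100a11* and the start of *S100a10*. The annexins are scattered, and the 10 genes together occupy 6 chromosomes, with *Anxa5* on chromosome 3 as well.

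Because GR binds DNA, the 250 bases before each RefSeq transcription start (GRCm38.p6, the assembly of mm10) were searched for motifs. Starts were matched for 8 of the 10 genes. The full GR palindrome, AGAACA and 3 bases later TGTTCT, was in 0.00913% of 32851 promoters and in none of the 8, on either strand. For *Anxa1* the searched window lies inside the gene as GENCODE M21 annotates it. No bases before the outermost annotated start of *Anxa1* were searched, so the absence there covers only sequence within the gene. AGAACA on its own was in 16.1% of promoters on either strand and was found in *S100a6*, 205 bases before the start, and in *Anxa4*. In *Anxa4* the matches lay 199 and 18 bases before an inner start, within the annotated gene. The window before the outermost *Anxa4* start held none. The AP-1 motif TGANTCA was in 6.75% of promoters, on either strand, and was found once in *Anxa2*, 95 bases before the start, and at 2 places in *S100a11*, 136 and 38 bases before the start. GGGCGG, the GC box, was in 32.7% of promoters and in *Anxa2*, *Anxa7*, *Anxa11* and *S100a11*. TATAAA, searched on the gene's strand, was in 7.59% of promoters and in *Anxa1* and *Anxa2*. Matches are descriptions of letters, and no binding was measured.

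The stretches before *S100a6*, *S100a11* and *Anxa2* are shown because they hold matches of AGAACA or of the AP-1 motif, and because the 2 S100 genes had their lowest values in the same 2 libraries. Each is on the plus strand, runs 5′ to 3′ and stops before the outermost annotated start of the gene. Capitals mark matches of the motifs named above.
S100a6, GRCm38 chr3:90612644-90612881: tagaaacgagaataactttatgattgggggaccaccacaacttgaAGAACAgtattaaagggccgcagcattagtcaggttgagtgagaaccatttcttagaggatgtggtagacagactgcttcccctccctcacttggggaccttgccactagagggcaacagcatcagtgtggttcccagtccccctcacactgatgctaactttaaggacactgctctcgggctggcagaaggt
S100a11, GRCm38 chr3:93520246-93520487: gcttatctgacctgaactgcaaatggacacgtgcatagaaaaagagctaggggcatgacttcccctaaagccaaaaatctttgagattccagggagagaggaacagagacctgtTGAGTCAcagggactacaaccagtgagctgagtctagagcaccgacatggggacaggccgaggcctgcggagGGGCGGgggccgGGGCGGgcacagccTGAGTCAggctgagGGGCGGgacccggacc
Anxa2, GRCm38 chr9:69453433-69453619: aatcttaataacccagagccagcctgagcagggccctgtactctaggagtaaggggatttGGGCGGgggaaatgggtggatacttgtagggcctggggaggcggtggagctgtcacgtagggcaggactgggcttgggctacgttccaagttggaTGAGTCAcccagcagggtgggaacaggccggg

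Several of these genes differed more between libraries of one genotype than between the genotype means. Control replicate 1 and Nr3c1-Foxp3-Cre replicate 2 held the 2 highest values of *Anxa1* and *Anxa5* and the 2 lowest values of *Anxa6*, *Anxa11*, *S100a6*, *S100a10* and *S100a11*. For *Anxa2*, *Anxa4* and *Anxa7* neither was so. Of all genes, 14.7% had their 2 lowest and 15.3% their 2 highest values in this pair of libraries. The pair was noticed in these values, so the counts are a description.

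Markers of other cells moved with the same libraries. For the labelled Treg identity, all 8 Treg markers had values. Their summed level was 3451 to 4860 CPM in control and 3481 to 4213 CPM in Nr3c1-Foxp3-Cre libraries, lowest in control replicate 1 and Nr3c1-Foxp3-Cre replicate 2. *Foxp3* itself, the defining transcription factor, was the lowest of the 8, between 3.39 and 4.47 log2 CPM. The highest was *Tnfrsf18*, between 10.33 and 10.63 log2 CPM. The 7 melanocyte markers, led by *Dct* with *Tyrp1* and *Pmel* next, summed to 9637 CPM in control replicate 1 and 10051 CPM in Nr3c1-Foxp3-Cre replicate 2, and to 3575 to 7219 CPM in the other 4 libraries. The 14 macrophage and monocyte markers had sums of 1895 to 2518 CPM in control and 1638 to 2456 CPM in Nr3c1-Foxp3-Cre libraries. In Nr3c1-Foxp3-Cre replicate 2, *Mpeg1*, *Pdgfra* and *Pdgfrb*, markers of macrophages and fibroblasts, shared that library's lowest value, -3.96 log2 CPM, which 11 genes held. No other measured marker, and none of the 10 annexin and S100 genes, was at the lowest value of a library. In bulk samples, fewer cells of a type and less RNA per cell cannot be told apart, and the part of melanocyte or macrophage RNA in the annexin and S100 values was not tested. The study's methods describe a CD45.2 gate, directed at leukocytes, and an exclusion of CD11b and CD11c cells, while the labels describe CD4+CD25+ cells. Melanocyte and macrophage markers had values in every library, and how far the sort removed melanoma cells and macrophages was not tested.

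Some markers also differed in mean between the genotypes. All 9 fibroblast markers were lower in mean in Nr3c1-Foxp3-Cre libraries, with summed levels of 209 to 372 CPM, against 303 to 687 CPM in control libraries. *Col1a1* had a log2 fold change of -1.87 (SE 0.29, limma adjusted p = 0.120) with no overlap of the groups. All 14 macrophage and monocyte markers were lower in mean too, with a median log2 fold change of -0.40. Fibroblasts and macrophages are known to express *Anxa1*, *Anxa2* and *S100a6* at high levels, and the part of these cells in the small group differences was not tested. How far the sort removed fibroblasts and macrophages was not tested either. Of the neutrophil markers 1 of 7 had values, and *S100a8* and *S100a9* were not analysed here. Of the endothelial markers 3 of 5 had values, of the B cell markers 1 of 5, and of the CD8 T and NK markers 1 of 6.

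**Figure D4:**
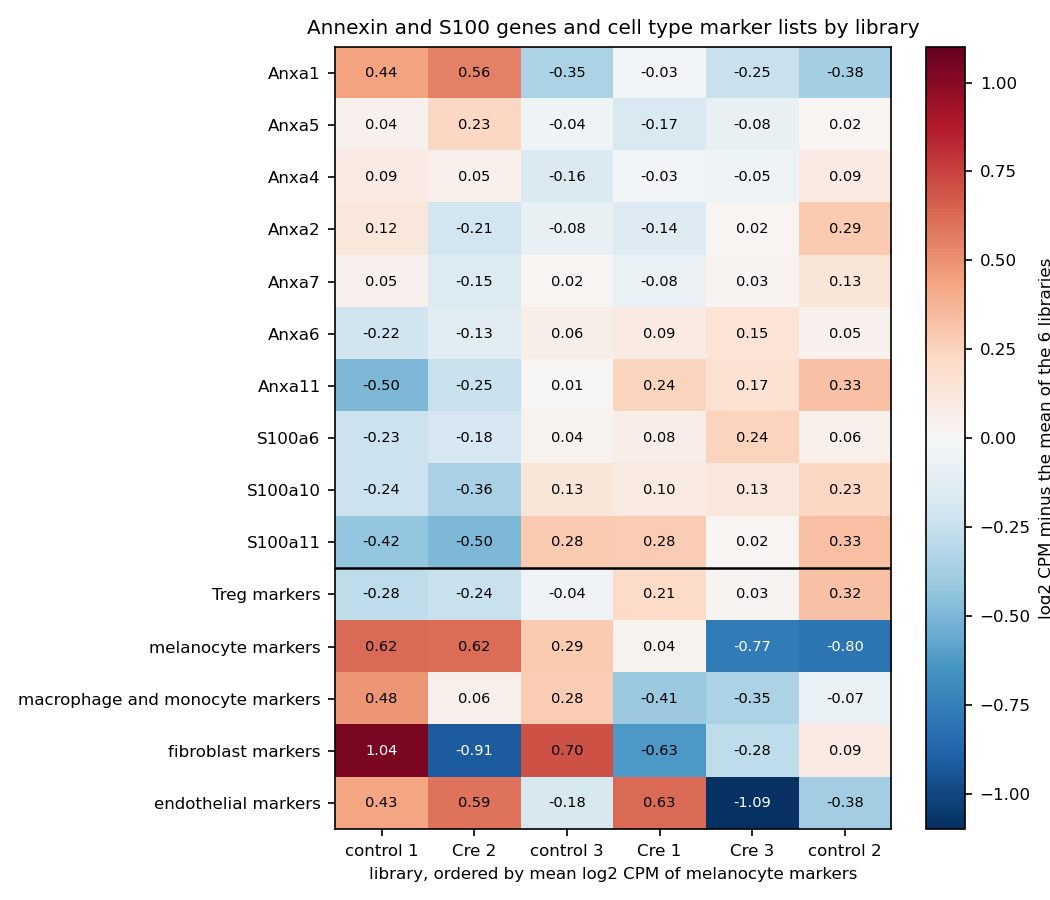
Log2 CPM minus the mean of the 6 libraries (color and printed number) for the 10 genes above the line and the mean of each marker list below it, with libraries in order of falling melanocyte markers from left to right. The 2 left columns, control replicate 1 and Nr3c1-Foxp3-Cre replicate 2 ("Cre 2"), are red for *Anxa1* and blue for *Anxa6*, *Anxa11*, *S100a6*, *S100a10* and *S100a11*. In Cre 2 the fibroblast mean includes *Pdgfra* and *Pdgfrb*, and the macrophage mean *Mpeg1*, at that library's lowest value. The fibroblast mean is lowest in Cre 2, although its fibroblast sum, 372 CPM, was the highest of the Nr3c1-Foxp3-Cre libraries.

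The genotypes were compared again without the library of each group that had the highest melanocyte sum, an alternative chosen after the data were seen. With 2 libraries against 2, the groups were apart for 6 of the 10 genes, against 25.6% of all genes. The libraries left out were the pair already seen to hold the extreme values of 7 of the 10 genes, and the 6 apart genes are among those 7, so this count repeats that description. *Anxa1*, *Anxa6* and *S100a6* were higher and *Anxa5*, *S100a10* and *S100a11* lower in Nr3c1-Foxp3-Cre libraries. The differences stayed small. *Anxa1* had a log2 fold change of 0.23 (SE 0.14) and *S100a11* one of -0.16 (SE 0.13), and 0 of 10 genes had a limma adjusted p under 0.05. With the mean of the melanocyte markers as a covariate, *Anxa2* had a log2 fold change of -0.23 (SE 0.10, limma adjusted p = 0.876), and again 0 of 10 passed.

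The genes whose values over the 6 libraries were most like those of *Anxa1* were *Crip2*, *Trib3* and *Cyb5a*. Pearson's r with *Anxa1* was 0.999, 0.990 and 0.988 (n = 6 libraries, the highest of 5903 genes with a mean of at least 5 log2 CPM). *Crip2* was at 5.84, 4.81 and 4.91 log2 CPM in control libraries and at 5.30, 6.03 and 4.996 in Nr3c1-Foxp3-Cre libraries. As with *Anxa1*, control replicate 1 and Nr3c1-Foxp3-Cre replicate 2 were the 2 highest. The 6 points are the same libraries for every gene, and no p is given for so small a number of points.

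Genes whose products work with annexins and S100 proteins gave 0 calls by limma as well, and 0 at an unadjusted p under 0.05. Of 26 listed binding partners, 15 had values, 7 higher and 8 lower in mean, with a median log2 fold change of -0.012. Their groups were apart only for *Capns1*, the small regulatory subunit of calpains, at -0.21 (SE 0.11, limma adjusted p = 0.99998), which is 1 of 15 beside 7.41% of all genes. Of 12 genes of phosphatidylserine exposure and lipid scrambling, 10 had values, *Anxa5* included, 7 higher and 3 lower in mean. The phospholipid scramblase gene *Plscr1* had apart groups, at 6.93, 7.04 and 7.03 log2 CPM in control and 6.77, 6.86 and 6.85 in Nr3c1-Foxp3-Cre libraries, a log2 fold change of -0.17 (SE 0.09, limma adjusted p = 0.99998). Of 15 plasma membrane repair genes, 12 had values, 5 higher and 7 lower, and some of them are also among the binding partners. *Chmp4b*, a subunit of the ESCRT-III membrane scission complex, had apart groups at a log2 fold change of -0.25 (SE 0.23). The 1 of 10 scrambling genes and 1 of 12 repair genes with apart groups stand beside 7.41% of all genes.

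Genes that mark T cell states were read beside the annexins. All 18 listed effector and memory genes had values, *Ahnak* and *S100a4* from above included, 12 higher and 6 lower in mean. By limma 0 passed the test, and 1 of 18 had an unadjusted p under 0.05 and apart groups, beside 3.26% and 7.41% of all genes. *Id2*, a regulator of effector differentiation, had apart groups with a log2 fold change of -0.69 (SE 0.15, limma adjusted p = 0.544), while *Vim*, *Lgals1* and *Crip1*, which often accompany *S100a6* and *Anxa2* in activated T cells, had log2 fold changes of 0.04, 0.03 and 0.06. Of 10 resting and central memory genes, 0 passed the limma test, 5 had an unadjusted p under 0.05 (3.26% of all genes did), and groups were apart for 5 (7.41% of all genes). The chemokine receptor *Ccr7* and the IL-7 receptor chain *Il7r* were at -0.61 (SE 0.19) and -0.90 (SE 0.28), and the transcription factor genes *Bach2* and *Foxp1* at 0.76 (SE 0.30) and 0.36 (SE 0.15). Of 17 genes known to be induced by glucocorticoids, 16 had values, 12 lower and 4 higher in mean. *Tsc22d3* alone passed the test, 1 of 16 beside 0.0576% of all genes, or 0.0494% in the lower direction. Groups were apart for 2 of 16, beside 7.41% of all genes. *Dusp1*, a MAP kinase phosphatase, had apart groups at -0.56 (SE 0.13, limma adjusted p = 0.652). The median log2 fold change of that list was -0.15, beside -0.017 for the 10 annexin and S100 genes.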

How the data were processed

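RNA-Seq was performed on Tregs sorted from B16.F10 tumors. The libraries were made with a SMARTer ultra-low input kit and Nextera XT. According to the submitters' processing notes and the study's methods, reads were trimmed with Cutadapt, aligned with STAR to mm10 and counted per gene with RSEM on GENCODE M21. The authors then filtered low genes, quantile normalized the libraries and deposited log2 CPM values for 12153 genes. Quantile normalization gives each library the same distribution, so a shift of all genes cannot be seen. Counts were not used here, so the read depth is unknown, no counting interval is given, and the number of libraries limits the precision.

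Groups were taken from the sample labels. A linear model with genotype as its only term was fitted to every gene in R 4.3.3 with limma 3.58.1 (lmFit, then eBayes with a mean-variance trend). Benjamini-Hochberg adjustment ran over the whole table, and a gene was called at an adjusted p under 0.05. The trend takes the place of voom weights, which need counts. For partner ratios the test was an exact permutation test, two-sided. Gene positions and exon lengths came from GENCODE M21 and promoter sequences from RefSeq (GRCm38.p6). The script was tested on simulated data.

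The members and the gene lists were chosen with earlier results of these data known. Named genes were the 10 members, every other measured annexin or S100 gene, from each list the genes past the threshold or up to 4 with groups that did not overlap, *Nr3c1* and *Tsc22d3*, the 3 genes most like *Anxa1*, and markers needed for a cell type. *Ahnak*, *Cacybp*, *Vim*, *Lgals1* and *Crip1* were named after their values were seen. Alternatives were vooma weights, robust eBayes, eBayes with no trend, weights by sample quality, log2 of the linear value plus 1, a floor at log2 0, a filter at a mean log2 value of 1, cyclic loess, median centering over genes whose mean was 5 log2 CPM or more, the replicate block, and leaving out each library. Both alternatives on melanocyte markers were chosen after seeing the data. The values of 1 gene of the resting and central memory list are not reported here.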

Additional observations from a re-analysis of the deposited data

How the results depend on the processing

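Over 18 alternatives, the log2 fold changes of the 10 genes gave 180 values. Of these, 163 had the same sign and the same side of the threshold as reported, 17 had the other sign, and 0 passed the threshold. Causes of these turns were not tested. With sample quality weights *Anxa4* was at 0.11 and *Anxa5* at 0.0064. Without 1 library at a time, the log2 fold change ran from -0.042 to 0.46 for *Anxa1*, -0.10 to 0.023 for *Anxa4*, -0.13 to 0.065 for *Anxa5*, -0.020 to 0.155 for *Anxa6*, -0.11 to 0.30 for *Anxa11*, -0.0089 to 0.205 for *S100a6*, -0.22 to 0.074 for *S100a10* and -0.37 to 0.089 for *S100a11*. In the same fits the difference in log2 ratio ran from -0.28 to 0.012 for *Anxa2* to *S100a10*, -0.13 to 0.83 for *Anxa1* to *S100a11*, and -0.11 to 0.16 for *Anxa11* to *S100a6*.

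The number of the 10 genes with groups apart rose from 0 to 1 with cyclic loess (*Anxa7*, lower, beside 7.91% of all genes). Without 1 library it ran from 0 to 3, at 3 without control replicate 1 (*Anxa1* higher, *S100a10* and *S100a11* lower, 15.8% of all genes), control replicate 3 (*Anxa2*, *Anxa4* and *Anxa7* lower, 13.2%) or Nr3c1-Foxp3-Cre replicate 2 (*Anxa5* lower, *Anxa6* and *S100a6* higher, 15.6%), and at 2 without Nr3c1-Foxp3-Cre replicate 3 (*Anxa2* and *Anxa7* lower, 17.9%). It was 6 with 2 libraries against 2. Fewer libraries make apart groups easier to reach.

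The 1 glucocorticoid-induced gene called lower, *Tsc22d3*, became 0 without a trend, with the replicate block and with 2 libraries against 2, and ran from 0 to 1 without 1 library. With the melanocyte covariate, 1 effector gene was called lower (*Id2*, limma adjusted p = 0.0401).

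The fit with a replicate block called 0 genes, against 7 without it, and gave *Tsc22d3* a limma adjusted p of 0.137. The labels number the libraries in both groups without saying that a number marks a shared batch. Deviations from the group means of same-numbered libraries correlated at -0.117, -0.329 and -0.025 across genes, so the numbers were not taken to pair the samples. The count of 7 called genes in the whole table became 0 without a trend, 19 with sample quality weights, 18 with the melanocyte covariate and 3 with 2 libraries against 2, and ran from 0 to 8 without 1 library.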
